A study of Mus musculus with 9 samples.

Results

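The granins and dense core granule cargo examined here are Chga, Chgb, Scg2, Scg3, Vgf and Resp18, chosen by gene name. All 6 were found among 23235 gene symbols, and all 6 were among the 13306 genes that reached 1 FPKM in at least 3 libraries. FPKM counts sequenced fragments per transcript length and per mapped fragments of a library, so levels of different genes can be set side by side. RNA of whole pancreas from mouse embryos at stage e15.5 was read in 9 libraries: 3 Blinc1-KO (genotype Blinc1-/-), 3 Blinc1-Het (Blinc1+/-) and 3 WT (Blinc1+/+), all on a mixed c57bl/6 and 129sv background. Blinc1 gives rise to a long noncoding RNA, and its neighbour Nkx2-2 encodes a transcription factor that islet cells need. The labels do not say how the allele was made, nor whether libraries came from separate embryos or litters. The p-values therefore measure the spread between these samples, part of which may be technical. Embryo sex, read below from Xist and Ddx3y, differed within Blinc1-Het and within WT, so the libraries of these groups were not all from the same embryo.

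Granins are acidic secretory proteins that aggregate with calcium in the trans-Golgi network, where dense core granules form. They are stored and released with peptide hormones, and several are cut at pairs of basic residues into bioactive peptides. In the pancreas they mark endocrine cells, and they are also made by neurons and by chromaffin cells of the sympathetic lineage. Whole pancreas mixes all of these cells with acinar, duct and supporting tissue, so fewer endocrine cells and less RNA per endocrine cell cannot be told apart.

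The depth implied by the deposited confidence bounds was 19532984 to 25437255 fragments per library. Endocrine identity was plain in each library, with Ins2 at 1191 to 3007 FPKM and Gcg at 604 to 1039 FPKM. The Blinc1 transcript was not analysed here, so the genotype labels were not checked against it. Nkx2-2 split the libraries within groups: it was at 24.9, 6.08 and 5.48 FPKM in Blinc1-KO replicates 1, 2 and 3, at 6.37, 19 and 13.4 FPKM in Blinc1-Het and at 15.2, 21.7 and 25.5 FPKM in WT. Blinc1-KO replicate 1 therefore lay among the WT libraries, and Blinc1-Het replicate 1 beside the other Blinc1-KO libraries. Xist and Ddx3y showed that all 3 Blinc1-KO libraries, 1 Blinc1-Het library and 1 WT library were from female tissue, so sex and knockout genotype are partly confounded.

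The 6 genes lie apart in the genome (mm9, coordinates as deposited), and no other annotated gene overlaps any of them in GENCODE. Chga, which encodes chromogranin A, lies on chromosome 12 from 103793179 to 103803237 on the plus strand and has 8 exons. Chgb, encoding chromogranin B, is on chromosome 2 from 132607014 to 132620808, plus strand, with 5 exons. Scg2, encoding secretogranin II, occupies chromosome 1 from 79431244 to 79436665 on the minus strand with 2 exons. Scg3, encoding secretogranin III, spans chromosome 9 from 75491173 to 75531863 on the minus strand with 12 exons. Vgf, a granin-related neuropeptide precursor gene inducible by nerve growth factor, is on chromosome 5 from 137506165 to 137509221, plus strand, with 2 exons. Resp18, which encodes a regulated endocrine-specific granule protein, is on chromosome 1 from 75268777 to 75274955, minus strand, with 6 exons.

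Granin promoters are known for the cyclic AMP response element (CRE), the site of the CREB family of transcription factors, so the bases around it are shown for the members that hold it. RefSeq promoter sequences (GRCm38.p6) were found for 5 of the 6 members, Vgf being without an entry, and each matched mm9 exactly at 1 place near its gene. The 250 bases before the RefSeq start were searched on both strands for TGACGTCA and for its core TGACG, which every full element also contains. Capitals mark the full element in Chgb and Scg2, and the core alone in Chga and Scg3.
Chgb: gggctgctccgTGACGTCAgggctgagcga
Scg2: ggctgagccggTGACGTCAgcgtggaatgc
Chga: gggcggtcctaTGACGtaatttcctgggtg
Scg3: cgctgggtcgcTGACGccatcctcacgcct
The elements begin at -72 in Chgb, -68 in Scg2, -44 in Chga and -30 in Scg3, counted from the RefSeq start. On mm9 the stretches are chr2:132607295-132607324 on the plus strand, chr1:79436651-79436680 on the minus strand, chr12:103793096-103793125 on the plus strand and chr9:75531875-75531904 on the minus strand. The Chgb and Scg2 stretches overlap an exon annotated in GENCODE, since the deposited start lies 364 bases before the RefSeq start at Chgb and 64 bases before it at Scg2, whereas those of Chga and Scg3 are upstream of the gene. The full element was present in 1.55% of 32851 mouse promoters of the same length and the core in 17.8%. Resp18 held neither sequence in this window. TATAAA was found in 0 of the 5 member promoters and in 12.4% of all promoters, and the E-box CANNTG in 4 of the 5, all but Scg3, and in 66.2% of all promoters. A match is a description of letters and not of binding.

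The members spanned a wide range of levels in the same order in each of the 9 libraries: Chga, Chgb, Scg3, Scg2, Resp18 and Vgf, from the highest to the lowest FPKM. Chga averaged 72.5 ± 27.5 FPKM in Blinc1-KO, 84.9 ± 24.2 in Blinc1-Het and 109 ± 17.2 in WT (SD, n = 3 each), and took 42.9% to 50.4% of the summed FPKM of the members per library. In WT, Scg3 averaged 27.3 ± 3.55 FPKM and Scg2 20.6 ± 3.44 FPKM, so the ranges of these neighbours overlapped (23.3 to 30.1 and 17 to 23.9 FPKM), although Scg3 exceeded Scg2 within each library. The Chga and Chgb ranges did not overlap in WT (89.2 to 122 and 43 to 80.2 FPKM), nor did those of Resp18 and Vgf (7.14 to 12.9 and 0.95 to 1.12 FPKM). Depth differed accordingly: Chga rested on 1801 to 4643 implied fragments per library, Resp18 on 63 to 169 and Vgf on only 29 to 111, so Vgf carries the largest counting error.

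**Figure D1:**
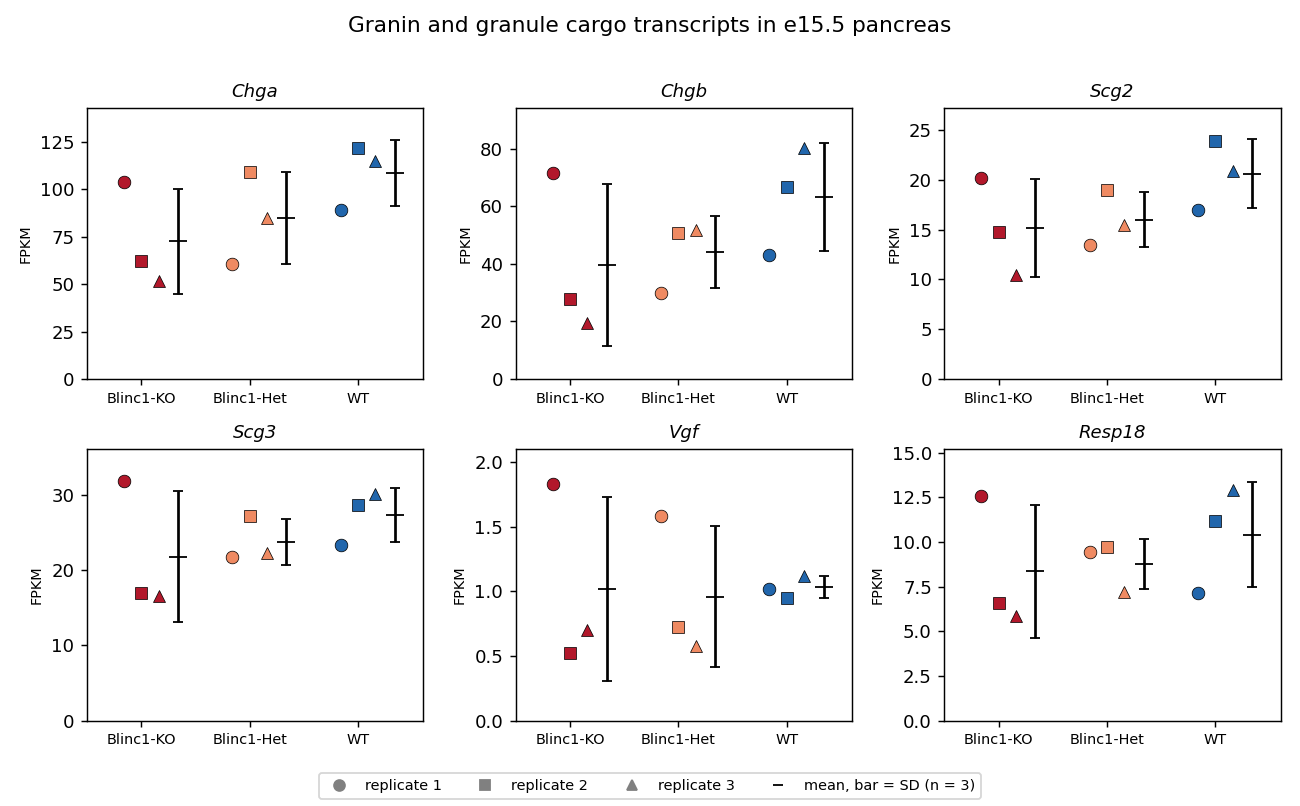
FPKM (linear axes) of the 6 members in each library, by genotype. Symbols are single libraries, shaped by replicate number, and the bar beside them is the mean with its SD (n = 3). Blinc1-KO replicate 1 sits at 104 FPKM for Chga and 71.6 FPKM for Chgb, among the WT libraries, while the other Blinc1-KO libraries lie below every WT library at all 6 genes.

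The comparison of Blinc1-KO with WT asks whether granule cargo expression depends on the Blinc1 gene. The mean log2 difference was below 0 at all 6 members, with Chgb and Chga differing most, but 0 of 6 passed the test. By limma with Benjamini-Hochberg adjustment, 0 of all 13306 genes passed as well, a background of 0%, and limma voom on the implied fragments also passed 0. At an unadjusted p under 0.05, 1 of 6 members was lower (Chga), against 5.79% of all genes. A difference below 0 was common too, at 58.5% of all genes, and the median log2 change was -0.41 over the members and -0.03 over all genes tested.

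Chga, the precursor of vasostatin, pancreastatin and catestatin, was at 104, 62.3 and 51.5 FPKM in Blinc1-KO, against 89.2, 122 and 115 FPKM in WT. Replicates 2 and 3 of Blinc1-KO lay below the WT libraries, replicate 1 lay within their range, and the groups overlapped. The log2 change on the log2(FPKM + 1) scale was -0.63 (SE 0.27, 95% interval -1.24 to -0.02, limma unadjusted p = 0.0434, adjusted p = 0.58). Chgb, a granule matrix protein and peptide precursor, was at 71.6, 27.7 and 19.3 FPKM in Blinc1-KO, against 43, 66.5 and 80.2 FPKM in WT. It spread over 3.71-fold within Blinc1-KO and 1.86-fold within WT, the widest spread of any member within Blinc1-KO. Its log2 change was -0.84 (SE 0.43, 95% interval -1.81 to 0.14, limma adjusted p = 0.58).

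Scg2, the precursor of secretoneurin, was at 20.2, 14.8 and 10.4 FPKM in Blinc1-KO, against 17, 23.9 and 20.9 FPKM in WT. Its log2 change was -0.45 (SE 0.21, 95% interval -0.94 to 0.03, limma adjusted p = 0.58). The same 2 knockout libraries were low, and replicate 1 was above the lowest WT library. Scg3, which binds chromogranin A and cholesterol-rich granule membrane, was at 31.8, 16.9 and 16.6 FPKM in Blinc1-KO, against 23.3, 28.6 and 30.1 FPKM in WT. Here Blinc1-KO replicate 1 was the highest of all 9 libraries. The log2 change was -0.37 (SE 0.22, 95% interval -0.87 to 0.12, limma adjusted p = 0.6).

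Resp18, a luminal protein of the secretory pathway, was at 12.6, 6.61 and 5.84 FPKM in Blinc1-KO, against 7.14, 11.2 and 12.9 FPKM in WT. The groups overlapped through Blinc1-KO replicate 1 alone, and the log2 change was -0.32 (SE 0.27, 95% interval -0.93 to 0.29, limma adjusted p = 0.69). Vgf, whose peptides are stored in granules of neurons and endocrine cells, was at 1.83, 0.521 and 0.697 FPKM in Blinc1-KO, against 1.02, 0.95 and 1.12 FPKM in WT. Its group means were close, at 1.01 ± 0.708 FPKM in Blinc1-KO and 1.03 ± 0.0859 FPKM in WT (SD, n = 3 each), while its spread was far wider in Blinc1-KO. The log2 change was -0.07 (SE 0.25, 95% interval -0.63 to 0.50, limma adjusted p = 0.93), and the estimate depends on the pseudocount, being -0.20 (SE 0.46) with 0.1 in place of 1 and -0.21 (SE 0.47) by limma voom on the implied fragments. An exact permutation test of 3 libraries against 3, two-sided, cannot go below p = 0.1, and gave p = 0.20 for Chga and Scg2, 0.30 for Chgb, 0.40 for Scg3 and Resp18 and 1 for Vgf. With embryo sex as a further term, the log2 change was -0.70 for Chga (SE 0.35, limma unadjusted p = 0.0808), -1.16 for Chgb (SE 0.53), -0.45 for Scg2, -0.40 for Scg3, -0.36 for Resp18 and 0.04 for Vgf.

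**Figure D2:**
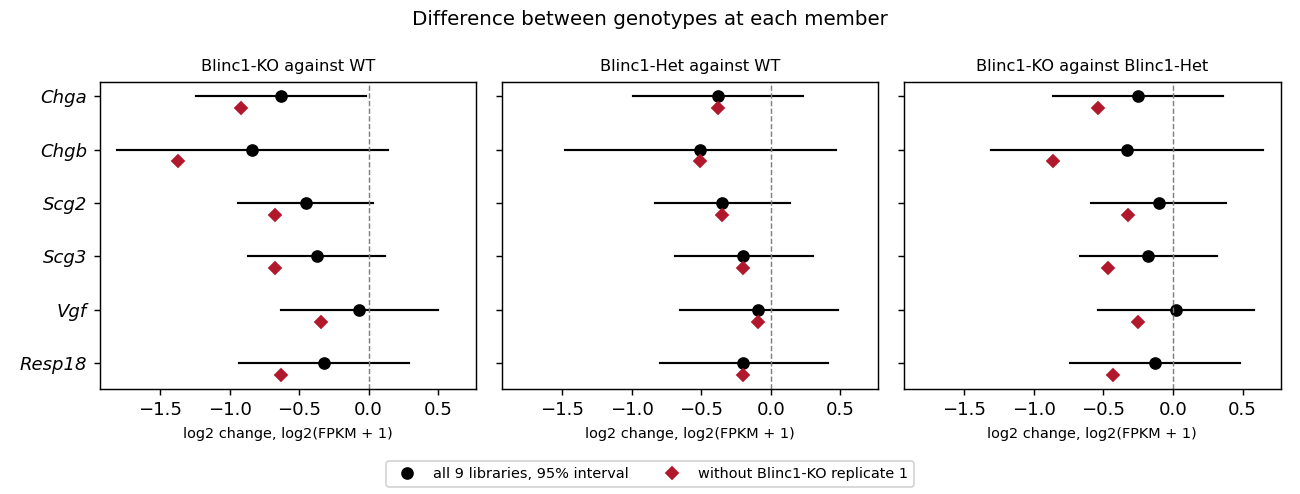
Log2 change on the log2(FPKM + 1) scale at each member (rows) for the 3 comparisons of genotypes (panels). Circles with lines are the limma estimate and its 95% interval from all 9 libraries, diamonds the estimate without Blinc1-KO replicate 1. For Chgb in Blinc1-KO against WT the estimate is -0.84 with all libraries and -1.37 without that library.

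Leaving out Blinc1-KO replicate 1, which stands with WT at Nkx2-2, widened the difference at each member. Every remaining Blinc1-KO library was then below every WT library at 6 of 6 members, which held for 27.5% of all genes. With all libraries the count was 0 of 6, against 6.64% of all genes. The limma unadjusted p was under 0.05, in the lower direction, at 5 of 6 members (all but Vgf), against 14.8% of all genes. Without that library the log2 change was -0.92 for Chga, -1.37 for Chgb, -0.67 for Scg2, -0.67 for Scg3, -0.63 for Resp18 and -0.34 for Vgf. The adjusted p by limma was 0.1 for Chga, 0.091 for Chgb, 0.12 for Scg2, 0.081 for Scg3, 0.16 for Resp18 and 0.4 for Vgf, so 0 of 6 passed here too. The library was singled out by its Nkx2-2 level, which varied with the granins across libraries, so the wider differences are no independent result. It was also rich in nerve markers, whose summed level was 229 FPKM there, against 91.1 to 143 FPKM in WT. Without that library the median log2 change in Blinc1-KO against WT was -0.05 over all genes tested (-0.03 with all libraries) and -0.67 over the members (-0.41). Over marker lists it was -0.62 for endocrine pancreas (-0.45), -0.39 for neurons (0.15) and -0.41 for chromaffin and sympathetic cells (0.12). For glia it was -0.45 (-0.22), for mesenchyme -0.54 (-0.36), for immune cells -0.51 (-0.41), for endothelium -0.30 (-0.22) and for acinar cells 0.35 (0.20). The members were not alone in this fit at a limma unadjusted p under 0.05. Lower were 6 of 7 mesenchyme, 4 of 6 immune, 4 of 6 endothelial and 4 of 7 endocrine markers, but 1 of 6 glial and 0 of 8 neuronal ones. Higher were 5 of 6 acinar markers, against 655 of all 13306 genes. The part of these cells in the wider granin differences was not tested.

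The comparison of Blinc1-Het with WT asks about loss of a single allele. All 6 members had a log2 change below 0, against 57.1% of all genes, and 0 of 6 passed by limma (background 0%). At an unadjusted p under 0.05, 0 of 6 were lower, against 2.58% of all genes. Chga was at 60.7, 109 and 84.9 FPKM in Blinc1-Het, against 89.2, 122 and 115 FPKM in WT, a log2 change of -0.38 (SE 0.27, limma adjusted p = 0.94). Chgb was at 29.8, 50.7 and 51.9 FPKM in Blinc1-Het, against 43, 66.5 and 80.2 FPKM in WT, a log2 change of -0.51 (SE 0.43, limma adjusted p = 0.94). The lowest value came from replicate 1 at both genes, and the groups overlapped. Without Blinc1-Het replicate 1 the log2 change was -0.16 for Chga and -0.25 for Chgb. Scg2 averaged 16 ± 2.79 FPKM in Blinc1-Het, with 13.5 FPKM as the lowest and 19 FPKM as the highest value, against 20.6 ± 3.44 FPKM in WT (SD, n = 3 each, log2 change -0.35, SE 0.21). Scg3 was at 21.7, 27.2 and 22.2 FPKM in Blinc1-Het, against 23.3, 28.6 and 30.1 FPKM in WT (log2 change -0.20, SE 0.22). Resp18, at 9.45, 9.74 and 7.18 FPKM in Blinc1-Het, lay within the WT range in all 3 libraries (log2 change -0.20). Vgf was at 1.58, 0.72 and 0.575 FPKM in Blinc1-Het (log2 change -0.09), so its highest value there came from the library of that group that was lowest for Chga.

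Between Blinc1-KO and Blinc1-Het the members overlapped throughout. The log2 change was below 0 at 5 of 6 members, against 55.3% of all genes, and ranged from -0.33 for Chgb (SE 0.43, 95% interval -1.31 to 0.65) to 0.02 for Vgf (SE 0.25). By limma 0 of 6 passed (background 0%, adjusted p = 1 at each member), and at an unadjusted p under 0.05 0 of 6 were lower, against 0.969% of all genes. The 3 comparisons share libraries, so their directions are not independent of each other. Nor are the members within a comparison separate observations, since all but Vgf varied together across libraries, as given below.

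The members were next set against the hormones they are stored with. Their summed level was 242, 129 and 104 FPKM in Blinc1-KO, 137, 216 and 182 FPKM in Blinc1-Het and 181, 253 and 260 FPKM in WT. Relative to the summed FPKM of Ins1, Ins2, Gcg, Sst, Ppy, Ghrl and Iapp, this came to 5%, 3.87% and 3.45% in Blinc1-KO, 4.36%, 4.47% and 4.37% in Blinc1-Het and 4.56%, 4.62% and 4.66% in WT. With this set of hormones the ratio was nearly constant within Blinc1-Het and within WT, and their ranges did not overlap. The summed members varied more widely within each of these groups. The hormone sum includes Sst, at 375, 201 and 174 FPKM in Blinc1-Het and 151, 422 and 455 FPKM in Blinc1-KO. In both groups Sst was highest where the summed members were lowest. How far the near constancy and the separation of the ratio rest on including Sst was not tested. In Blinc1-KO the ratio spread to both sides of the WT range. Chgb was at 0.692, 0.445 and 0.375 times the FPKM of Chga in Blinc1-KO, 0.491, 0.465 and 0.611 times in Blinc1-Het and 0.482, 0.547 and 0.696 times in WT, so within Blinc1-KO it was lowest relative to Chga in the libraries that were low for both. These ratios are descriptions and were not tested.

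**Figure D3:**
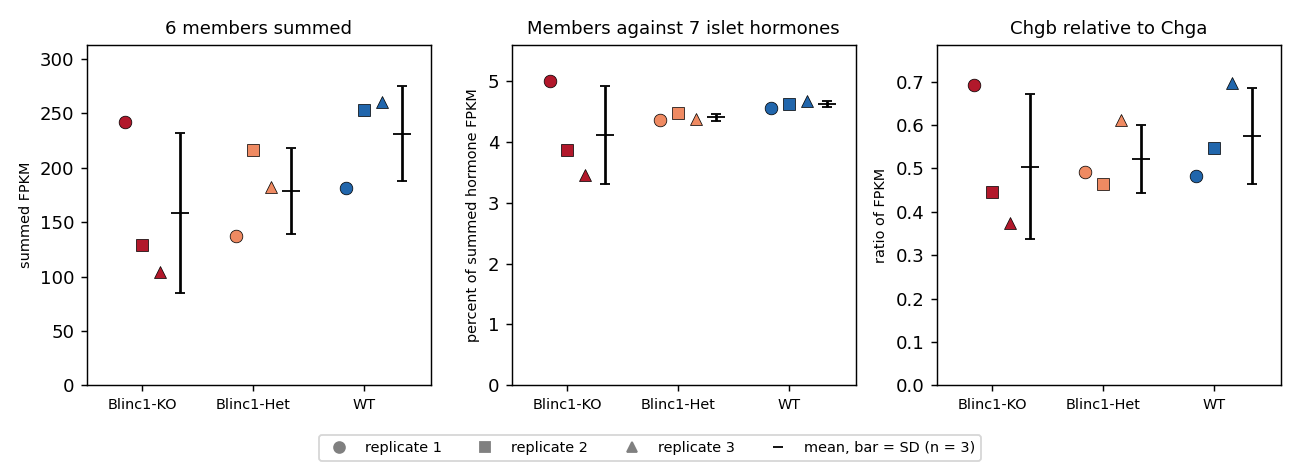
Summed FPKM of the 6 members (left), that sum as a percent of the summed FPKM of 7 islet hormone genes (middle) and the ratio of Chgb to Chga FPKM (right), by genotype. Symbols are single libraries and bars the mean with its SD (n = 3). The percent lies at 4.56 to 4.66 in WT and 4.36 to 4.47 in Blinc1-Het, but at 3.45 to 5 in Blinc1-KO. The hormone sum includes Sst, which in Blinc1-Het and Blinc1-KO was highest where the summed members were lowest.

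Across the 9 libraries, which also share differences in cell makeup and depth, Chga, Chgb, Scg2 and Scg3 varied together. Pearson's r of log2(FPKM + 1) between any pair of these 4 was 0.88 to 0.96, and Resp18 followed them at 0.76 to 0.92. Vgf stood apart, with r from 0.23 with Chga to 0.67 with Resp18. All r here are descriptions over 9 libraries. Among 13300 other genes, the profile most like that of Chga was Ins2, the main mouse insulin gene (r = 0.988), followed by Papss2 (0.980), a sulphate donor synthase gene, and Syt13 (0.979), a synaptotagmin gene of endocrine cells. The nearest to Chgb were Tesc (0.985), Adck2 (0.973) and Ins2 (0.972). Smarca2, Abcb9 and Gls2 were nearest to Scg2 (0.961, 0.956 and 0.952), and Adck2 and Lrp4 were among the nearest to Scg3 (0.976 and 0.973). Resp18 was most like Pcsk1n (0.946), which encodes the convertase inhibitor proSAAS, then Igsf1 (0.945) and Slc12a7 (0.943). Vgf was most like Flcn (0.970), the folliculin gene, Zfp606 (0.965) and Cox4nb (0.947). The mean of the 6 members was most like Gls2 (0.975), Adck2 (0.970), Sytl4 (0.965), whose product granuphilin docks insulin granules, Schip1 (0.964) and Atp1b1 (0.962).

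Nkx2-2 ranked high by the same measure. It was number 6 of 13300 genes for Chga (r = 0.972), number 4 for Chgb (0.964), 15 for Scg3 (0.945) and 30 for Scg2 (0.905). It was number 206 for Resp18 (0.778) and 5285 for Vgf (0.338). In the 3 libraries with the lowest Nkx2-2, at 5.48 to 6.37 FPKM, Chga was at 51.5 to 62.3 FPKM, and in the other 6 at 84.9 to 122 FPKM. This order ran across genotype labels, since the 3 libraries were Blinc1-KO replicates 2 and 3 and Blinc1-Het replicate 1.

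**Figure D4:**
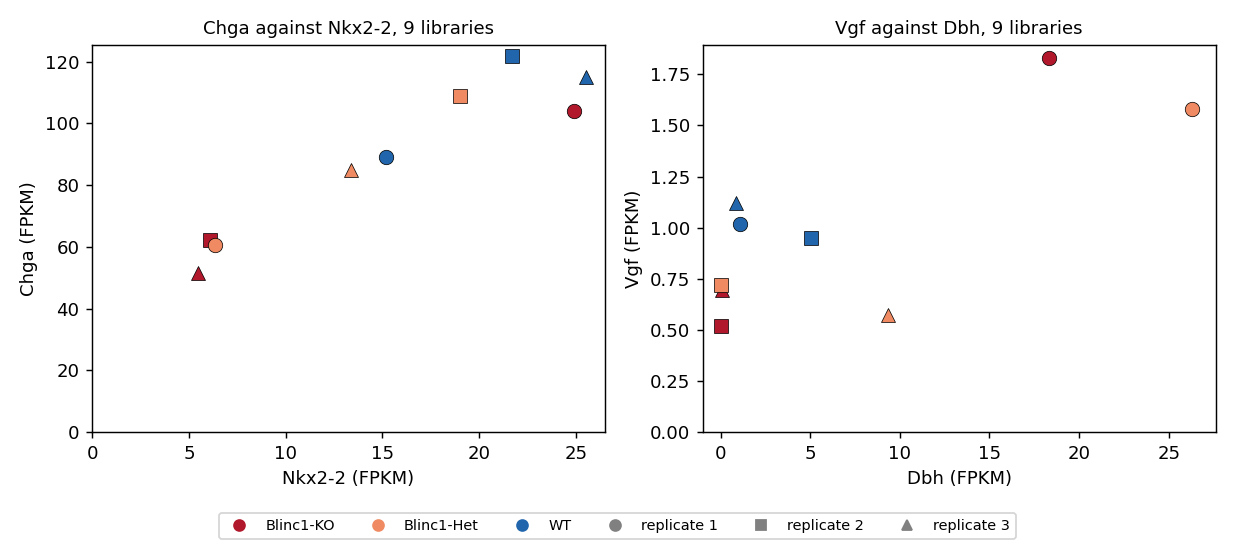
Chga against Nkx2-2 (left) and Vgf against Dbh (right), in FPKM on linear axes, 1 point per library, coloured by genotype and shaped by replicate number. Chga is at 51.5 to 62.3 FPKM in the 3 libraries with Nkx2-2 at 6.37 FPKM or less. Vgf is highest in Blinc1-KO replicate 1 (1.83 FPKM) and Blinc1-Het replicate 1 (1.58 FPKM), the libraries with the most Dbh.

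Nerves and sympathetic cells also store granins, and their markers varied widely between libraries. Dbh, the noradrenaline-synthesizing enzyme gene, was at 18.3, 0.0184 and 0.0926 FPKM in Blinc1-KO, 26.3, 0.0387 and 9.32 FPKM in Blinc1-Het and 1.05, 5.06 and 0.864 FPKM in WT. Th, encoding tyrosine hydroxylase, was at 19.6, 1.52 and 1.85 FPKM in Blinc1-KO, 25.3, 1.78 and 6.87 FPKM in Blinc1-Het and 2.24, 7.76 and 2.73 FPKM in WT. Replicate 1 of Blinc1-KO and replicate 1 of Blinc1-Het were thus highest for both genes, as for Vgf. The other libraries did not keep this order: Blinc1-Het replicate 3 combined the next highest Dbh with low Vgf (0.575 FPKM), and WT replicate 2 had the most Dbh and Th of the WT libraries and the least Vgf of them (0.95 FPKM). All 8 neuronal markers had values, and their summed level was 73.8 to 229 FPKM in Blinc1-KO, 65.3 to 289 FPKM in Blinc1-Het and 91.1 to 143 FPKM in WT. The 7 chromaffin and sympathetic markers summed to 83.1 to 136 FPKM in Blinc1-KO, 82.1 to 157 FPKM in Blinc1-Het and 79.4 to 88.5 FPKM in WT. Ddc, which islet cells also express, gave 65.9 to 88.5 FPKM of that sum. Pnmt, which defines adrenaline-making cells, was listed at 0 in 7 of 9 libraries; it was named after its values were seen. Chga, Chgb, Scg2 and Scg3 were each at their highest of the group in Blinc1-KO replicate 1 and at their lowest of the group in Blinc1-Het replicate 1, the libraries richest in these markers. The part of nerve and sympathetic cells in the member levels was not tested.

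Other parts of the granule pathway were read gene list by gene list, and in Blinc1-KO against WT 0 genes of any list passed by limma. The counts below 0 are to be read against 58.5% of all genes below 0, and those with an unadjusted p under 0.05 against 5.79% lower. Of the granin relatives and convertase chaperones, 3 of 4 had a log2 change below 0 (median -0.17). Scg5, encoding the convertase 2 chaperone 7B2, was at 32.9, 7.77 and 5.31 FPKM in Blinc1-KO, against 15.9, 22.7 and 29 FPKM in WT (log2 change -0.89, SE 0.54). It showed the same split between knockout libraries as Chgb. Nucb1 and Nucb2, which encode calcium-binding nucleobindins, averaged 143 ± 6.57 and 88.5 ± 16.2 FPKM in Blinc1-KO, against 148 ± 3.72 and 81.8 ± 3.35 FPKM in WT (SD, n = 3 each).

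Among peptide hormones and neuropeptides, 11 of 16 tested genes had a log2 change below 0 in Blinc1-KO (median -0.21), a share near the 58.5% of all genes. An unadjusted p under 0.05 was reached in the lower direction by 3 of the 16, against 5.79% of all genes. Ins2 was at 2524, 1390 and 1191 FPKM in Blinc1-KO, against 2050, 3007 and 2918 FPKM in WT. Cck and Penk, precursors of cholecystokinin and enkephalin, averaged 5.68 ± 1.85 and 24.9 ± 4.64 FPKM in Blinc1-KO, against 8.34 ± 1.28 and 32.5 ± 4.52 FPKM in WT. Sst, the hormone gene of delta cells, ran opposite to the granins: it was at 151, 422 and 455 FPKM in Blinc1-KO, against 152, 155 and 191 FPKM in WT. Blinc1-KO replicate 1 stood at the WT level here as well. Sst and Rest, below, were named after their values were seen.

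Of the prohormone processing enzymes, 8 of 10 had a log2 change below 0 in Blinc1-KO (median -0.14). Pam, which amidates peptides, was at 42.8, 30.8 and 30.2 FPKM in Blinc1-KO, against 43.1, 43.1 and 41.1 FPKM in WT (log2 change -0.30, SE 0.12, limma adjusted p = 0.58). Cpe, the carboxypeptidase that trims processed hormones, averaged 223 ± 20.4 FPKM in Blinc1-KO and 212 ± 10.1 FPKM in WT, and Ctsl 266 ± 28.4 and 256 ± 45.4 FPKM (SD, n = 3 each). At Cpe, Blinc1-KO replicates 2 and 3 had the highest values of all 9 libraries, 238 and 231 FPKM, where at Chga they were among the lowest.

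Of the granule membrane genes, 9 of 14 tested were below 0 (median -0.09), near the 58.5% of all genes. Slc30a8, the zinc transporter gene of insulin granules, averaged 3.53 ± 1.74 FPKM in Blinc1-KO and 6.06 ± 1.28 FPKM in WT, whereas Syt5, a synaptotagmin gene, averaged 2.76 ± 0.892 and 1.87 ± 0.243 FPKM. The genes of granule biogenesis and sorting had 8 of 17 below 0 (median 0.01), likewise near that background. Sytl4 was at 9.71, 5.88 and 5.41 FPKM in Blinc1-KO, against 8.02, 9.7 and 8.73 FPKM in WT, while Rab2a, a small GTPase gene active in all cells, averaged 143 ± 3.51 and 144 ± 2.29 FPKM. Of the transcription factors linked to granin genes, 16 of 17 tested were below 0, against 58.5% of all genes (median -0.16), none with an unadjusted p under 0.05. Pax6 averaged 8.91 ± 2.02 FPKM in Blinc1-KO and 11.3 ± 1.13 FPKM in WT, and Rest, the repressor of neuronal genes including granins, 2.98 ± 0.15 and 3.17 ± 0.485 FPKM (SD, n = 3 each).

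Markers of the endocrine pancreas and of other tissues were compared in the same way, against 58.5% of all genes below 0. In Blinc1-KO against WT the log2 change was above 0 at 6 of 6 acinar markers tested (median 0.20), and below 0 at 7 of 7 mesenchyme markers (median -0.36), 6 of 6 endothelial markers (-0.22), 6 of 6 glial markers (-0.22) and 6 of 6 immune markers (-0.41), with 0 passing by limma. It was below 0 at 2 of 8 neuronal markers (median 0.15), 2 of 6 chromaffin and sympathetic markers (0.12), 3 of 5 duct markers and 2 of 5 erythroid markers (0.05). At the endocrine pancreas markers, the 7 hormone genes summed above, it was below 0 at 5 of 7. Their median was -0.45, beside -0.41 over the members. Without Blinc1-KO replicate 1 the log2 change was below 0 at 7 of 8 neuronal, 5 of 6 chromaffin and sympathetic and 5 of 7 endocrine pancreas markers. In that fit it was below 0 at 8188 of all 13306 genes. Acinar markers, mostly digestive enzyme genes, summed to 14029 to 20721 FPKM in Blinc1-KO and 14803 to 15350 FPKM in WT. Mesenchyme markers summed to 901 to 1285 FPKM in Blinc1-KO and 1122 to 1573 FPKM in WT. The part of these shifts in the granin levels was not tested.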

How the data were processed

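Total RNA of whole e15.5 pancreas was made into TruSeq libraries, per the labels' protocols, and sequenced on an Illumina HiSeq2000. Mapping used TopHat 2.0.4 on the mm9 genome with up to 4 mismatches and 10 hits, per the series' design text. The submitters' processing notes also name CASAVA 1.8.2, Cufflinks and DESeq. Neither names the annotation or says whether strand was used. The authors deposited FPKM per gene with confidence bounds, 1 table per library.

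Loci of the same symbol were summed (248 symbols had more than 1 locus), 4 symbols marked as holding excess data were left out, and genes with 1 FPKM or more in at least 3 of 9 libraries were kept. limma 3.58.1 (R 4.3.3) was fitted to log2(FPKM + 1) of all 9 libraries with genotype as the only term and an intensity trend, with Benjamini-Hochberg adjustment over 13306 genes at 0.05. The pseudocount of 1 understates changes of low genes such as Vgf. Fragment numbers were derived from the width of the confidence bounds, and 73.85% to 74.6% of those under 500 lay within 0.05 of a whole number, so they are estimates. The fit was checked on simulated data.

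Sex was read from Xist and Ddx3y. The genes named are the members, Nkx2-2, and from each list up to 3 with the highest mean FPKM and up to 2 with the smallest p, with Sst, Rest and Pnmt added later; per member, the 3 genes of highest Pearson correlation are given, except 1 that is not reported here. The members, lists and motifs were chosen with earlier results of these data known. Motifs were searched in RefSeq promoters. The alternatives were other pseudocounts (0.1 and 0.5), filters, scalings, weights and terms, voom, and leaving out libraries.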

Additional observations from a re-analysis of the deposited data

How the results depend on the processing

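No member passed at an adjusted p of 0.05 in any comparison under any of the 22 alternative settings, or the 21 that gave a value for Vgf, which a filter at 5 FPKM removed. In Blinc1-KO against WT the smallest adjusted p was 0.063 for Chga, 0.066 for Chgb, 0.064 for Scg2 and 0.07 for Scg3, all by limma with array weights. The log2 change with these weights was -0.92 for Chga, -1.37 for Chgb, -0.77 for Scg2 and -0.58 for Scg3. Without Blinc1-KO replicate 1 it was -0.92, -1.37, -0.67 and -0.67. How far the weights lowered that library was not tested. Chga, Chgb, Scg2, Scg3 and Resp18 kept a log2 change below 0 in Blinc1-KO against WT and in Blinc1-Het against WT under every setting. Leaving out 1 library in turn moved Blinc1-KO against WT over -0.92 to -0.42 for Chga, -1.37 to -0.45 for Chgb, -0.67 to -0.22 for Scg2 and for Scg3 and -0.63 to -0.13 for Resp18, the smallest changes being those without Blinc1-KO replicate 3 and the largest those without Blinc1-KO replicate 1. In Blinc1-Het against WT the ranges were -0.58 to -0.16 for Chga, -0.76 to -0.25 for Chgb, -0.47 to -0.24 for Scg2, -0.30 to -0.13 for Scg3 and -0.42 to -0.04 for Resp18, the last without WT replicate 1 and without WT replicate 3.

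Vgf changed sign. In Blinc1-KO against WT its log2 change was 0.06 with quantile normalization, 0.04 with a sex term and -0.34 to 0.11 when 1 library was left out. In Blinc1-Het against WT it was -0.30 to 0.05 when 1 library was left out. In Blinc1-KO against Blinc1-Het it was -0.12 with array weights, -0.04 without Blinc1-KO replicate 1 and Blinc1-Het replicate 1, and -0.25 to 0.24 when 1 library was left out. There the left-out range also crossed 0 for Chgb (-0.86 to 0.06), Scg2 (-0.32 to 0.12) and Resp18 (-0.43 to 0.06). The cause was not tested.

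Over all genes, the count passing in Blinc1-KO against WT was 0 as reported, 1 with only these groups in the fit, 5 with array weights, 4 without Blinc1-KO replicate 1 and Blinc1-Het replicate 1, and 0 to 1 when 1 library was left out. In Blinc1-Het against WT it was 6 with only these groups, 5 without those libraries and 0 to 7 when 1 was left out, and in Blinc1-KO against Blinc1-Het 5 without those libraries and 0 to 4. Whether replicate numbers pair the libraries is not settled by their correlations. Between Blinc1-KO and Blinc1-Het these were 0.0468 to 0.29 for same-numbered libraries and -0.344 to 0.148 for different-numbered ones. In pairs with a WT library they were -0.189 to 0.182 and -0.335 to 0.276. A batch shared by number was not tested. With the replicate block 0 genes passed in Blinc1-KO against WT, 1 in Blinc1-Het against WT and 0 in Blinc1-KO against Blinc1-Het, and no member passed. At an unadjusted p under 0.05, limma gave 346 genes higher and 771 lower in Blinc1-KO against WT, 179 and 343 in Blinc1-Het against WT, and 167 and 129 in Blinc1-KO against Blinc1-Het. Voom passed 0 genes in each. Median-of-ratios rescaling turned the split of Blinc1-KO against WT to 547 higher and 663 lower, and quantile normalization to 551 and 570. The sex term gave 223 and 335, array weights 1320 and 2410, and leaving out Blinc1-KO replicate 1 gave 655 and 1973. Depth limits Vgf and Resp18 most, with as few as 29 and 63 implied fragments in a library.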
